A study of Homo sapiens with 24 samples.

Results

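Nucleoporins and nuclear transport receptors were followed as 43 genes out of 13416, 22 of them nucleoporins and 21 receptors. They were the genes whose symbols follow the NUP, NUPL, KPNA, KPNB, IPO, XPO and TNPO naming and whose mean level was at least 1 TPM (a unit of abundance that divides out transcript length and the size of the library). Of 44 such symbols, KPNA7, an importin alpha, was the 1 below the limit, at a mean of 0.078 TPM. NUP210L, at 1.05 TPM, was the member just inside it. Nucleoporins build the pore that spans the nuclear envelope, from a ring-shaped scaffold to a central channel lined with phenylalanine-glycine repeats. Transport receptors bind cargo and pass through that channel: importins and transportins carry proteins inward, exportins carry them outward, and the small GTPase Ran sets the direction. Some of the longest-lived proteins known in resting cells are scaffold nucleoporins, while dividing cells have to build new pores in every cycle.

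The cells were U2OS, a human osteosarcoma line, carrying a custom-made tetracycline-off switch for TOB2 S254D, a mutant that mimics phosphorylation. The BTG/TOB family, of which TOB2 is a member, brings the CCR4-NOT deadenylase to mRNAs. The induced arm had no doxycycline and expressed the mutant, and the uninduced arm had doxycycline, so the drug and the mutant changed together and cannot be told apart. Both arms came from the same custom line, were pulsed with bromouridine, and had cytoplasmic RNA taken at 0, 0.5, 1, 2, 4 and 6 h of chase. RNA carrying bromouridine was pulled down by an antibody and sequenced in 2 libraries per arm and time, 24 in all. Nothing in the labels says that these replicates were separate cultures, so p-values measure the spread between libraries, which may be technical. In the straight-line fits below, that spread also includes how far the times depart from the line.

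TOB2 itself separated the arms in every library. It was at 653 and 516 TPM in the induced libraries and 267 and 246 TPM in the uninduced libraries at 0 h. At 6 h it was at 711 and 576 TPM in the induced libraries, against 105 and 92.3 TPM in the uninduced libraries. The sequencing depth behind the values is unknown. A library held 12594 to 13757 genes at 1 TPM or more. Of 3 mesenchymal markers, VIM averaged 580 TPM, FN1 0.27 TPM and CDH2 0.02 TPM. Of 5 epithelial markers, the keratins KRT18, KRT8 and KRT19 averaged 1584, 828 and 0.04 TPM, CDH1 averaged 0.18 TPM and EPCAM was at 0. Of 9 osteoblast markers, 3 reached a mean of 1 TPM, COL1A1 at 12.5, RUNX2 at 4.13 and BGLAP at 1.72 TPM, and IBSP and COL1A2 were at 0. The 9 summed to 14.2 to 29.4 TPM in the induced libraries and 10.2 to 22.3 TPM in the uninduced libraries. Among leukocyte markers, PTPRC averaged 0.15 TPM, CD3E 0.01 TPM, CD14 1.19 TPM and LYZ 29.7 TPM. Induced replicate 2 at 0 h and 0.5 h held the most RMRP, MIR6723 and RPPH1, noncoding RNAs that made up 27.5% of the TPM in each. At 0 h the nucleoporins summed to 939 TPM in that library and 1164 TPM in induced replicate 1. Results without these RNAs, or without both libraries, are given as counts of members called and for some of the named members.

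The members covered a wide range of levels. KPNA2, an importin alpha, averaged 887 TPM over the 24 libraries and was the highest of the receptors, followed by KPNB1, importin beta, at 224 TPM. NUP62, a channel nucleoporin, averaged 254 TPM and was the highest nucleoporin, followed by NUP50, a nuclear basket protein, at 155 TPM. The lowest nucleoporins were NUP210L and NUP214, a cytoplasmic filament protein at 16.9 TPM. The lowest receptors were IPO4, an importer of histones, and IPO13, at 8.81 and 9.69 TPM. The median member was at 43.8 TPM, against 17.5 TPM for the median of the genes kept. Of the 43 genes, 23 were listed with 1 transcript and 20 with several.

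Most of these mRNAs became a larger share of the labelled cytoplasmic RNA during the chase, in both arms. A straight line of log2(TPM + 1) on hours was fitted per arm with limma, and a gene was called where the Benjamini-Hochberg adjusted p was under 0.05. In the induced arm 36 of 43 members were called, against a background of 70.7% of the genes tested: 33 rose and 3 fell, against 41.6% rising and 29% falling. In the uninduced arm 33 members were called, against 65.1%: 32 rose and 1 fell, against 42.8% rising and 22.3% falling. NUP210L is counted among those that fell in each arm. The median slope of the members was 0.16 log2 per hour in the induced arm and 0.16 in the uninduced arm, beside 0.03 and 0.04 for the genes tested. Members were highest at 6 h in 25 of 43 cases in the induced arm (58.1%, against 33.8% of the genes tested) and in 22 of 43 in the uninduced arm (51.2%, against 36.3%). A rise here is a rise in share: slower loss than other RNAs and late arrival of labelled RNA in the cytoplasm cannot be told apart. In these bulk samples fewer cells and less RNA per cell cannot be told apart either.

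The zero of that scale depends on the scaling. With median-of-ratios scaling the median of the genes tested shifted by -0.19 log2 over 6 h in the induced arm and by -0.26 in the uninduced arm. Rising calls were then 49.1% of the called genes in the induced arm and 48.4% in the uninduced arm, in place of 58.9% and 65.8%. Without RMRP, MIR6723 and RPPH1 they were 45.4% in the induced arm and 52.5% in the uninduced arm. With median-of-ratios scaling the members had 31 rising and 5 falling in the induced arm and 29 rising and 4 falling in the uninduced arm.

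**Figure D1:**
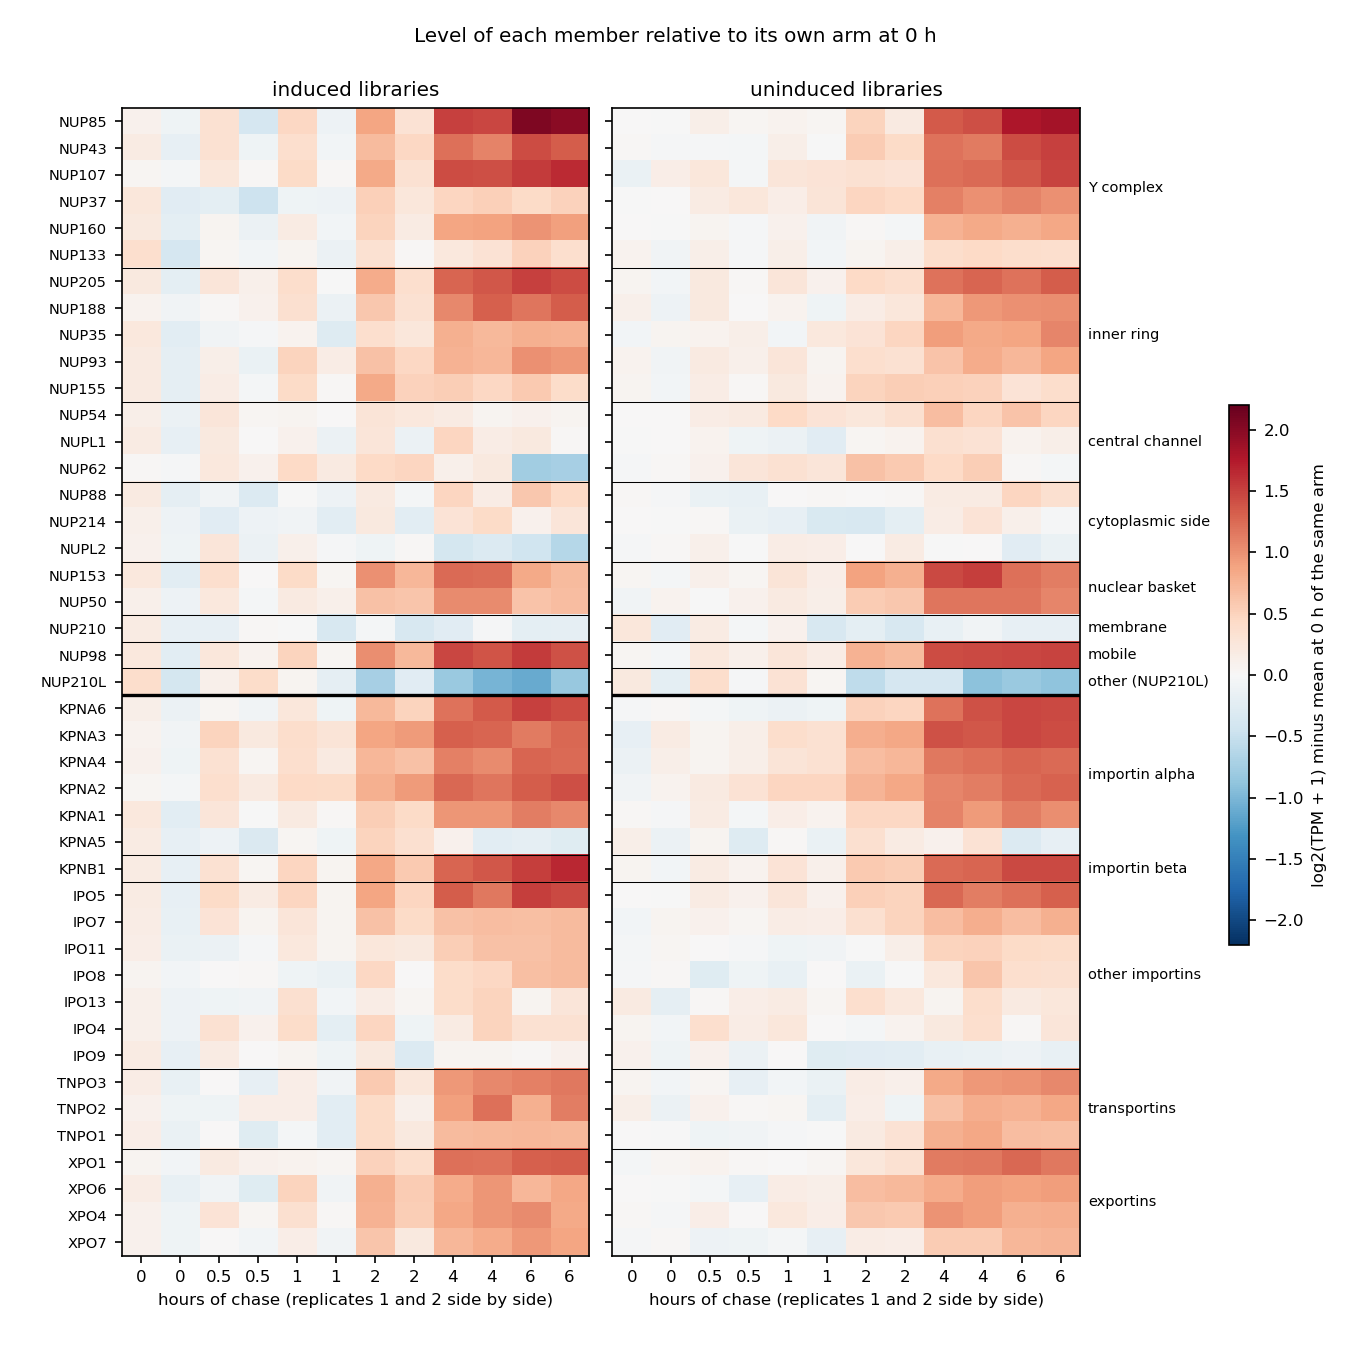
Change of each of the 43 members, as log2(TPM + 1) minus the mean of the same arm at 0 h, in the 12 induced libraries (left) and the 12 uninduced libraries (right), with columns in order of chase time and rows by place in the pore or kind of receptor. Red is higher and blue lower than at 0 h: NUP85, NUP107, KPNA6 and KPNB1 are deep red at 6 h in both arms, NUP210L is blue in both, and NUP62 is blue at 6 h in the induced libraries.

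Within the pore, all 6 Y complex members, the subunits of the outer scaffold rings, rose in both arms, beside 41.6% of the genes tested in the induced arm and 42.8% in the uninduced arm. The call of NUP133 was lost in both arms without RMRP, MIR6723 and RPPH1, for protein-coding transcripts only and without replicate 2, and in the uninduced arm also with quantile normalization and median-of-ratios scaling. The induced call of NUP37 was lost without replicate 2. Over 0 to 2 h the uninduced calls of NUP107, NUP133, NUP160, NUP37 and NUP85 were lost, as were the induced calls of NUP133 and NUP160. The median slope of the 6 was 0.22 log2 per hour in the induced arm and 0.22 in the uninduced arm. NUP85 had the steepest rise of the nucleoporins. It was at 30.2 and 26.4 TPM at 0 h, 52.4 and 35.4 TPM at 2 h, 81.6 and 80.3 TPM at 4 h and 119.6 and 114 TPM at 6 h in the induced libraries. In the uninduced libraries it was at 26.5 and 25.8 TPM at 0 h, 37.2 and 30.3 TPM at 2 h, 68.5 and 71.7 TPM at 4 h and 91.9 and 95.5 TPM at 6 h. Its 4 and 6 h libraries lay above all of its 0 h libraries in each arm, and at 6 h both induced libraries were above both uninduced ones. Such separation was common at 6 h: both induced libraries were the higher for 31.3% of the genes tested and the lower for 28.4%. The slope of NUP85 was 0.37 ± 0.029 log2 per hour (SE, adjusted p = 1.131e-10) in the induced arm and 0.33 ± 0.029 (adjusted p = 1.111e-09) in the uninduced arm.

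NUP107, a stem subunit of the Y complex that binds NUP133, was at 47.4 and 51.5 TPM at 6 h in the induced libraries, against 39.3 and 42.7 TPM in the uninduced libraries. At 0 h it had been at 16.3 and 15.3 TPM in the induced libraries and 13.1 and 16.2 TPM in the uninduced ones. The libraries of the arms overlapped at 0 h and were apart at 6 h. NUP43, a peripheral Y subunit, stood at 57.2 ± 3.02 TPM in the induced libraries and 58.4 ± 2.23 TPM in the uninduced libraries at 6 h (SD, n = 2 each), 2.67-fold and 2.85-fold its level at 0 h. These sums include a noncoding transcript, NR_104456, at a mean of 16.3 TPM in the induced and 20.95 TPM in the uninduced libraries at 6 h. At 0 h it was at 0.96 and 0 TPM. The coding NM_198887 went from 20.5 to 40.9 TPM in the induced libraries and from 20.5 to 37.5 TPM in the uninduced libraries. NUP133 rose least of the 6, by 0.08 log2 per hour in the induced arm and 0.07 in the uninduced arm. NUP37, the other peripheral subunit, was at 38.2 ± 1.54 TPM in the induced libraries and 45.7 ± 1.74 TPM in the uninduced libraries at 6 h (SD, n = 2 each), a difference of -0.25 that did not pass the threshold (adjusted p = 0.3015 with limma).

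The inner ring holds the channel in place. All 5 of its members, NUP205, NUP188, NUP35, NUP93 and NUP155, rose in the induced arm, beside 41.6% of the genes tested. In the uninduced arm 4 of 5 rose, beside 42.8%. The exception was NUP155, with 0.08 log2 per hour (adjusted p = 0.01472 with limma) in the induced arm and 0.06 (adjusted p = 0.05122) in the uninduced arm. Both calls depend on the fit. The induced one was lost with quantile normalization, median-of-ratios scaling, no RMRP, MIR6723 and RPPH1, protein-coding transcripts only, without replicate 2 and without the induced replicate 2 library of 0 h, and with the replicate block NUP155 rose in the uninduced arm as well. It was at 149.8 and 118 TPM at 2 h and 124 and 110.5 TPM at 6 h in the induced libraries, against 110.9 and 116 TPM at 2 h and 97.8 and 104 TPM at 6 h in the uninduced libraries. The large scaffold protein NUP205 was at 83.8 and 80.0 TPM in the induced libraries and 68.1 and 74.6 TPM in the uninduced libraries at 6 h, 2.8-fold and 2.46-fold its level at 0 h. The median slope of the inner ring was 0.16 log2 per hour in the induced arm and 0.18 in the uninduced arm.

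NUP98 is a mobile channel nucleoporin whose precursor also yields NUP96, a Y complex subunit, from the same mRNA. It rose by 0.27 ± 0.030 log2 per hour (SE, adjusted p = 2.848e-08) in the induced arm and by 0.27 ± 0.030 (adjusted p = 3.461e-08) in the uninduced arm. Its level at 6 h was 237 and 215 TPM in the induced libraries and 227 and 229 TPM in the uninduced libraries, so the induced range held the uninduced values. NUP98 is listed with 4 transcripts, of which NM_005387 held 42.9% and NM_016320 held 41.6%, the most even split among the members. The rise was uneven among them. From 0 to 6 h NM_016320 went from a mean of 57.1 to 71.6 TPM in the induced libraries. In the uninduced libraries it went from 55.7 to 71.45 TPM. NM_005387 went from 19.8 to 110.5 TPM in the induced libraries and from 21.3 to 83.7 TPM in the uninduced libraries.

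Calls were mixed among nucleoporins of the channel, the cytoplasmic face and the membrane. None of the 3 channel members was called as rising over all times in the induced arm, beside 41.6% of the genes tested. In the uninduced arm NUP54 was, beside 42.8%. That call of NUP54 was lost with quantile normalization, for protein-coding transcripts only and over 0 to 2 h. The induced slope of NUP54 was called as falling with quantile normalization, without RMRP, MIR6723 and RPPH1, and for protein-coding transcripts only. Over 0 to 2 h NUP62 was called as rising in both arms, by 0.23 log2 per hour in the induced arm and 0.30 in the uninduced arm. Over 0 to 4 h NUP62 and NUPL1 were called in the uninduced arm. Of the 3 on the cytoplasmic side, NUP88 rose in both arms (0.11 log2 per hour in the induced arm and 0.08 in the uninduced arm), although its calls were lost in both arms with quantile normalization and in the uninduced arm with median-of-ratios scaling and protein-coding transcripts only. NUP214 was called as rising in the induced arm (0.07, adjusted p = 0.01974) and not in the uninduced arm (0.04, adjusted p = 0.1767). The induced call was lost with quantile normalization, median-of-ratios scaling, no RMRP, MIR6723 and RPPH1, protein-coding transcripts only and without replicate 2. NUPL2, also called NUP42, a partner of the export factor GLE1, fell by 0.10 ± 0.017 log2 per hour (SE, adjusted p = 1.053e-05) in the induced arm and had a slope of -0.04 ± 0.017 (adjusted p = 0.0512) in the uninduced arm. The difference between these slopes was -0.06 ± 0.024 (adjusted p = 0.246). The uninduced slope of NUPL2 was called with quantile normalization, median-of-ratios scaling, no RMRP, MIR6723 and RPPH1, and protein-coding transcripts only. It was also called at a limit of 5 TPM, with the replicate block and with a contrast of the group means. NUP210, a membrane-spanning pore protein, was at 24.0 and 24.3 TPM in the induced libraries and 24.1 and 24.4 TPM in the uninduced libraries at 6 h, and its slopes of -0.02 and -0.03 were not called. Both slopes were called with quantile normalization, median-of-ratios scaling, no RMRP, MIR6723 and RPPH1, and protein-coding transcripts only. NUP210L, a relative of NUP210 known mainly from the testis, was at 2.38 and 0.96 TPM at 0 h and 0.19 and 0.45 TPM at 6 h in the induced libraries, and at 1.62 and 0.95 TPM at 0 h and 0.28 and 0.22 TPM at 6 h in the uninduced libraries. It reached a mean of 1 TPM only through its early libraries, so its falling call in each arm is not used as a result, and at a limit of 5 TPM it was not tested.

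**Figure D2:**
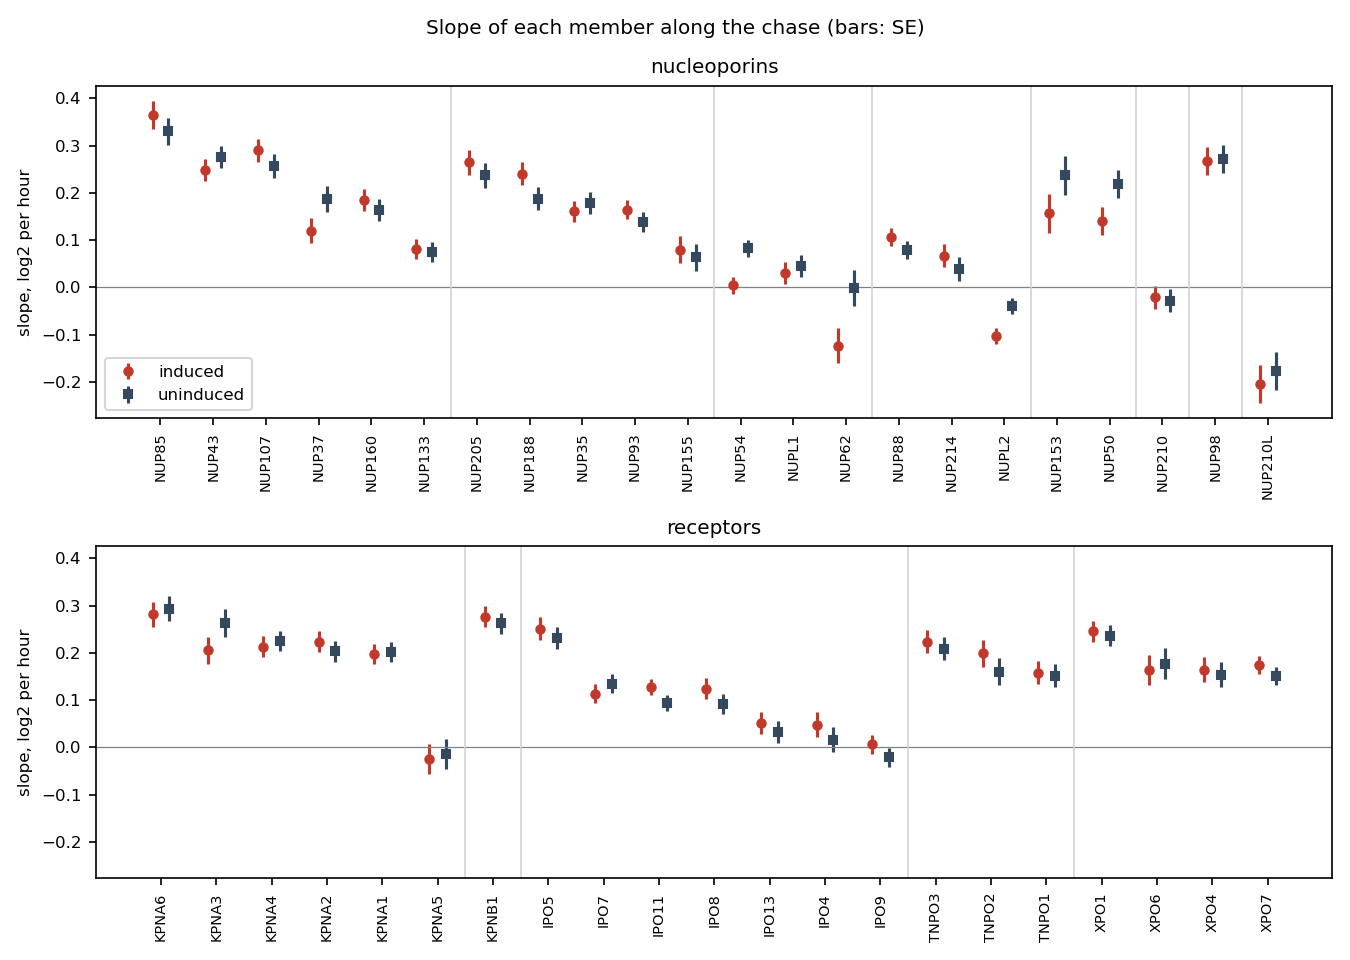
Slope of log2(TPM + 1) per hour (vertical axis) for the 22 nucleoporins (upper panel) and the 21 receptors (lower panel), with the induced arm as circles left of the uninduced arm as squares, bars for the standard error, and grey lines between places in the pore or kinds of receptor. NUP85 is highest in both arms, NUP210L lowest, and NUP62 stands at -0.12 in the induced arm and near 0 in the uninduced arm.

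Receptors rose with few exceptions: 17 of 21 were called in each arm, and they were the same 17. Beside the counts per arm, here and per kind of receptor below, 41.6% of the genes tested rose in the induced arm and 42.8% in the uninduced arm. The share of the genes tested that rose in both arms was not computed. KPNA2 carries classical import signals by way of KPNB1, and it alone made up 41.3% to 46.5% of the summed receptor TPM in the induced groups and 43.7% to 50.1% in the uninduced groups. It was at 532 and 499.9 TPM at 0 h, 888 and 987 TPM at 2 h and 1302 and 1376 TPM at 6 h in the induced libraries. In the uninduced libraries it was at 512 and 567 TPM at 0 h, 902 and 976 TPM at 2 h and 1286 and 1327 TPM at 6 h. The arms overlapped at each of these times, and the group mean of each arm was higher at each later time. The slope was 0.22 ± 0.022 log2 per hour in the induced arm and 0.20 ± 0.022 in the uninduced arm (SE).

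The other importin alpha genes, which read the same class of import signal, followed KPNA2 with 1 exception. KPNA6 rose most, by 0.28 ± 0.026 log2 per hour (SE, adjusted p = 1.401e-09) in the induced arm and 0.29 ± 0.026 (adjusted p = 1.422e-09) in the uninduced arm. KPNA3 rose by 0.21 ± 0.030 in the induced arm and by 0.26 ± 0.030 in the uninduced arm. KPNA5 was the exception: it was at 11.4 and 10.8 TPM in the induced libraries and 9.88 and 10.8 TPM in the uninduced libraries at 6 h, after a maximum at 2 h in each arm, and no slope was called. In the induced arm KPNA5 was called as falling with median-of-ratios scaling, without RMRP, MIR6723 and RPPH1 and for protein-coding transcripts only. Over 0 to 2 h it was called as rising there. Importin beta, KPNB1, the carrier that takes importin alpha and its cargo through the pore, was at 387 and 425 TPM in the induced libraries and 352 and 354 TPM in the uninduced libraries at 6 h. That was 3-fold and 2.75-fold its level at 0 h.

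Among the 7 importins that bind cargo without an adaptor, 4 rose in both arms: IPO5, IPO7, IPO8 and IPO11. The calls of IPO8 and IPO11 were lost over 0 to 2 h in both arms. The uninduced call of IPO8 was also lost with median-of-ratios scaling and for protein-coding transcripts only. IPO5, which imports ribosomal proteins and histones, rose by 0.25 ± 0.024 log2 per hour (SE, adjusted p = 1.877e-09) in the induced arm and by 0.23 ± 0.024 (adjusted p = 1.201e-08) in the uninduced arm. IPO4, IPO9 and IPO13 had slopes between 0.0064 and 0.05 in the induced arm and between -0.02 and 0.03 in the uninduced arm, and none was called. With median-of-ratios scaling, without RMRP, MIR6723 and RPPH1 and for protein-coding transcripts only, IPO9 was called as falling in the uninduced arm. For protein-coding transcripts it was called in the induced arm as well. IPO4 and IPO13 were called in the induced arm with quantile normalization and without replicate 1, among other fits. A readthrough gene listed as IPO11-LRRC70 did not exceed 0.84 TPM in any library. All 3 transportins rose in both arms, with slopes from 0.16 to 0.22 in the induced arm and from 0.15 to 0.21 in the uninduced arm. TNPO1 carries hnRNP proteins such as HNRNPA1, TNPO2 is its close relative, and TNPO3 carries SR splicing factors. All 4 exportins rose in both arms as well. XPO1, the receptor for leucine-rich export signals, was at 269 and 273 TPM in the induced libraries and 244 and 227 TPM in the uninduced libraries at 6 h, 2.51-fold and 2.33-fold its level at 0 h.

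Slopes were called in the same direction in both arms for 32 members, 31 of them rising. No member was called in opposite directions. The share of all genes called in both arms was not computed. Taken singly, 70.7% of the genes tested were called in the induced arm and 65.1% in the uninduced arm. The share called in both arms can be no larger than the lower of these. Across the 43 genes the slopes of the arms had a Pearson r of 0.945, a description of points that share the libraries of each arm. When the slopes themselves were compared, induced minus uninduced, 0 of 43 members passed the threshold with limma, against 0.343% of the genes tested (0.00745% higher and 0.335% lower), and 3 members were under 0.05 before adjustment. These were NUP54, NUPL2 and NUP62, all with lower slopes in the induced arm. NUP54 differed by -0.08 ± 0.026 log2 per hour (SE, adjusted p = 0.1916) and NUP62 by -0.12 ± 0.053 (adjusted p = 0.3325). Among receptors, the smallest p-values belonged to IPO11, with 0.03 ± 0.025 (adjusted p = 0.618), and KPNA3, with -0.06 ± 0.042 (adjusted p = 0.6194). At 0 h, 0 members differed between the arms with limma, against 0.0298% of the genes tested (0.0224% higher and 0.00745% lower), and 3 were under 0.05 before adjustment. The tests do not show that the slopes are alike: a contrast of the group means along the time course, in place of the line, called NUP50, NUP54 and NUP62 as lower in the induced arm.

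At 6 h the arms differed for 3 nucleoporins, all lower in the induced arm: NUP62, NUP50 and NUP54. That is 3 of 43 members (6.98%), beside 9.14% of the genes tested, 8.04% lower and 1.1% higher, and no receptor passed the threshold. The members' count is close to the background and is no result about the set as a whole. With median-of-ratios scaling 4 members were lower and 1 higher at 6 h, and higher calls made up 25.7% of the called genes in place of 12.1%.

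NUP62, the channel nucleoporin that gives its name to the NUP62-NUP54-NUP58 complex, showed the largest difference. In the induced libraries it was at 205 and 198 TPM at 0 h, 236 and 215 TPM at 0.5 h, 274 and 230.4 TPM at 1 h, 275 and 280.2 TPM at 2 h, 217 and 234 TPM at 4 h and 118 and 121 TPM at 6 h. In the uninduced libraries it was at 236 and 242 TPM at 0 h, 257 and 288 TPM at 0.5 h, 301 and 287 TPM at 1 h, 373 and 358 TPM at 2 h, 325 and 348 TPM at 4 h and 244 and 231 TPM at 6 h. Both induced libraries lay below both uninduced libraries at each of the 6 times, and each arm peaked at 2 h. From its peak to 6 h the group mean dropped 2.32-fold in the induced arm and 1.54-fold in the uninduced arm. At 6 h the induced arm was lower by -0.98 ± 0.091 on the log2(TPM + 1) scale (SE, adjusted p = 5.919e-06 with limma), a ratio of 0.504 in TPM. At 0 h the difference was -0.25 ± 0.091 (adjusted p = 0.6284).

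The line through all times gave NUP62 a slope of -0.12 ± 0.037 log2 per hour in the induced arm (SE, adjusted p = 0.004985) and of -0.0014 ± 0.037 in the uninduced arm, which averages over the climb to 2 h and the drop after it. The induced call was lost without replicate 1 (adjusted p = 0.126), without the induced replicate 1 library (0.0829) or replicate 2 library (0.0712) of 6 h, and with the most abundant transcript (0.0813). A line over 0 to 4 h turned the sign, to 0.03 in the induced arm and 0.12 in the uninduced arm. The 6 h difference of NUP62 was called under each of 36 alternatives, with adjusted p between 3.59e-07 and 0.0291. NUP62 is listed with 5 transcripts, and NM_153718 held 54.7% of its TPM. That transcript averaged 54.3 TPM in the induced libraries and 117.6 TPM in the uninduced libraries at 6 h.

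In RefSeq NUP62 shares its start with IL4I1, an amino acid oxidase gene, and its 5′ end overlaps ATF5, a transcription factor gene on the opposite strand. IL4I1 did not exceed 0.54 TPM in any library. ATF5 was at 36.0 and 45.7 TPM in the induced libraries and 55.7 and 64.7 TPM in the uninduced libraries at 6 h, a difference of -0.55 ± 0.135 (SE, adjusted p = 0.0142). Whether reads were counted by strand is not given in the sources used here, so reads from the overlapping ends of NUP62 and ATF5 cannot be told apart.

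NUP50, the basket protein named above, helps free importin alpha from its cargo. It rose along the chase by 0.14 ± 0.029 log2 per hour in the induced arm and by 0.22 ± 0.029 in the uninduced arm (SE). It was at 167 and 173 TPM in the induced libraries and 238 and 223 TPM in the uninduced libraries at 6 h. At 4 h it was at 222 and 222 TPM in the induced libraries and 238 and 239 TPM in the uninduced libraries, and at 0 h at 117 and 99.2 TPM in the induced libraries and 99.9 and 110.4 TPM in the uninduced ones. The arms overlapped at 0 h, and both induced libraries were lower at 4 and 6 h, as for 23.1% of the genes tested at 4 h and 28.4% at 6 h. The 6 h difference was -0.44 ± 0.099 (SE, adjusted p = 0.008771). The call was lost without either replicate 1 library of 6 h, in fits that leave 1 library in a group. The difference was -0.41 without the induced one and -0.39 without the uninduced one. Without a replicate 2 library of 6 h it was -0.46 (induced) or -0.48 (uninduced).

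NUP153, the other basket protein, was read beside NUP50 after its values were seen. It peaked at 4 h in both arms, at 236 and 232 TPM in the induced libraries and 257 and 269 TPM in the uninduced libraries. At 6 h it was at 178 and 161 TPM in the induced libraries, against 217 and 205 TPM in the uninduced libraries, a difference of -0.32 ± 0.151 (SE, adjusted p = 0.2311).

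NUP54, the partner of NUP62 in the channel complex, was at 42.7 and 41.5 TPM in the induced libraries and 57.5 and 52.0 TPM in the uninduced libraries at 6 h. At 0 h it was at 43.8 and 36.3 TPM in the induced libraries and 37.0 and 37.0 TPM in the uninduced libraries. Its level stayed within 36.3 to 48.5 TPM in the 12 induced libraries, and reached 60.1 TPM in the uninduced ones. The 6 h difference was -0.37 ± 0.111 (SE, adjusted p = 0.0464). That call was lost in 18 of 24 fits that each left out 1 library, with adjusted p up to 0.321, and for protein-coding transcripts alone (-0.34, adjusted p = 0.269). NUPL1, also called NUP58, the last subunit of this complex, was at 35.2 and 30.8 TPM in the induced libraries and 31.3 and 32.4 TPM in the uninduced libraries at 6 h, a difference of 0.05 ± 0.15 (SE, adjusted p = 0.8917).

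**Figure D3:**
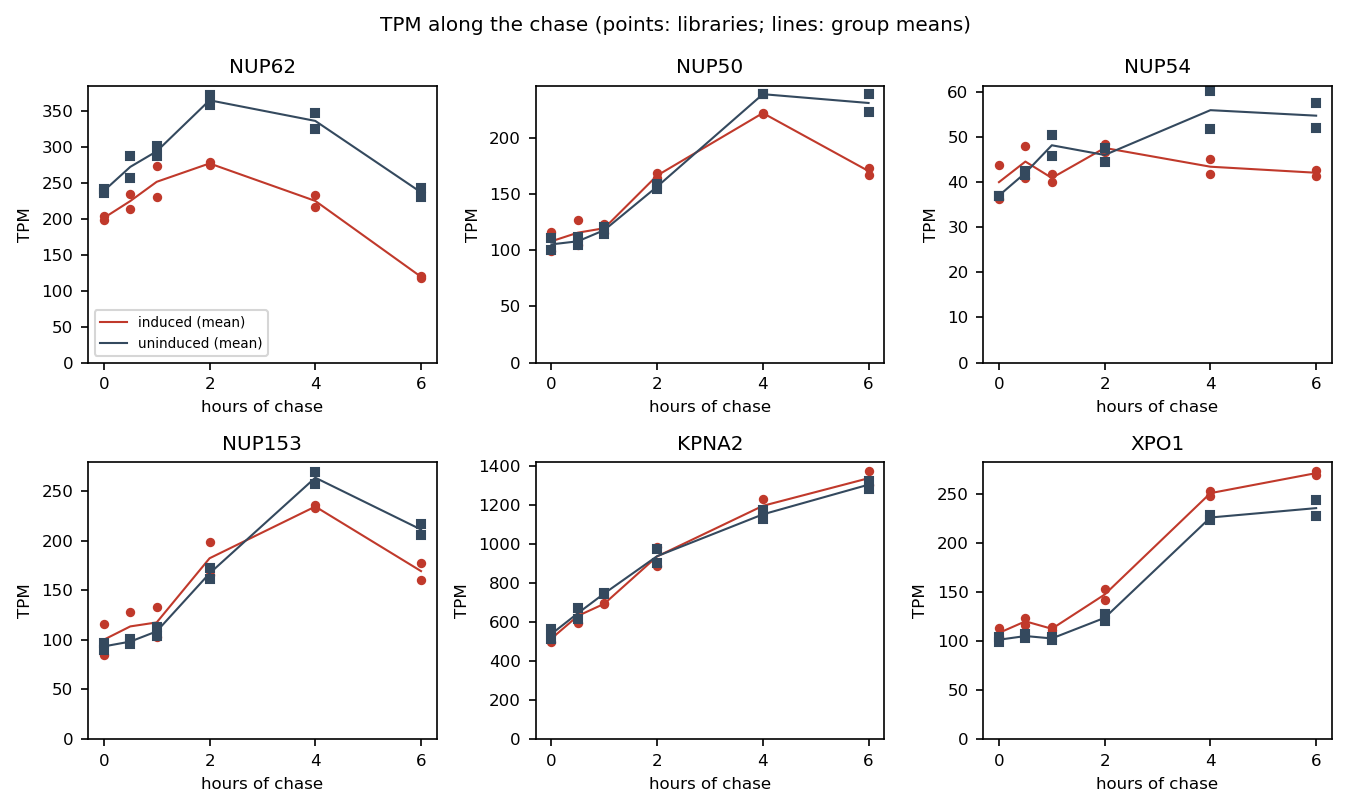
TPM (vertical axis) against hours of chase for NUP62, NUP50, NUP54, NUP153, KPNA2 and XPO1, each point a library and each line the mean of 2 libraries, induced and uninduced in separate colours on a linear axis that starts at 0. NUP62 climbs to 2 h and then drops, with the induced points below the uninduced ones throughout, while KPNA2 climbs to 6 h with the arms overlapping.

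The start regions of the 3 members called at 6 h are shown because they are the genes whose labelled RNA differed between the arms at the end of the chase. Each window runs from 250 bases before to 50 after the RefSeq start (build GRCh38.p14) and is written 5′ to 3′ on the strand of the gene. Capitals mark CGCATGCG, the core of the motif of NRF1, an activator of many nuclear genes for mitochondria, and CCGGAAG, the core bound by ETS factors, on either strand.
NUP62 (chr19:49929455-49929754, minus strand): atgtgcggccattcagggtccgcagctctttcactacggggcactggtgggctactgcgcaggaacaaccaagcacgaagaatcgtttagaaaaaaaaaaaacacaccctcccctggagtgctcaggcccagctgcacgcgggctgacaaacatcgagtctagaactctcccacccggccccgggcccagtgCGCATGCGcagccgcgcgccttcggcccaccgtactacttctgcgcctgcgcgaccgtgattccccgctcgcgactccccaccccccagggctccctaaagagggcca
NUP50 (chr22:45163675-45163974, plus strand): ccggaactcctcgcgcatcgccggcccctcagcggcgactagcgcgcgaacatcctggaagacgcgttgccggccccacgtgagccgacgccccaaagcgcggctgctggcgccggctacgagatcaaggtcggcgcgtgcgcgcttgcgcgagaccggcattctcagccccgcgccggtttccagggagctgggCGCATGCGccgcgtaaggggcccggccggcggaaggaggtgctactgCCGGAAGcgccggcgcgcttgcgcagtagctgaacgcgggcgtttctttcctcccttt
NUP54 (chr4:76148348-76148647, minus strand): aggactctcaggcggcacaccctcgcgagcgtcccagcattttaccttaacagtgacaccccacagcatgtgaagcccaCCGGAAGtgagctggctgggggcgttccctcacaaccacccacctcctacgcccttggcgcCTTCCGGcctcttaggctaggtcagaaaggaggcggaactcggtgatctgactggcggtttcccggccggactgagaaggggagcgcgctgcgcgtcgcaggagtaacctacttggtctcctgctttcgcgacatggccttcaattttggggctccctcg

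NUP62 held the NRF1 letters 58 bases before its start, NUP50 55 bases before, and the window of NUP54 did not hold them. NUP54 held the ETS letters in 2 places. NUP50 has 2 annotated starts, and the window of the other one held neither word. Of the 43 members, 38 were matched to a RefSeq window, with 50 distinct windows in all. The NRF1 letters were in 8% of those 50 windows, belonging to NUP62, NUP50, NUP107 and IPO11, and in 2.49% of 22199 RefSeq windows. The ETS letters were in 24% of the members' windows, NUP54, NUP50 and NUP107 among them, and in 12.8% of the 22199. CCAAT was in 50% against 34.7%, GGGCGG (SP1) in 46% against 56.3%, AAGATGGC (YY1) in 10% against 3.53%, TGACGTCA (CRE) in 10% against 2.26%, and TATAAA in 8% against 9.47%. Both strands were searched, the words may overlap, and a match describes the letters, not binding.

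**Figure D4:**
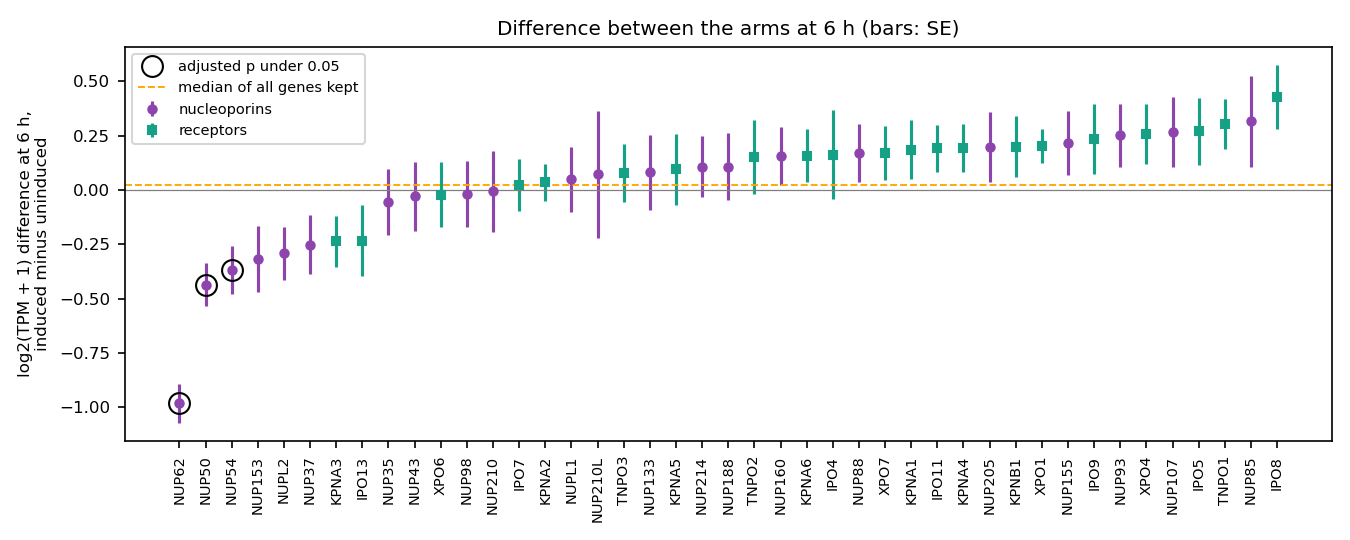
Difference at 6 h, induced minus uninduced, on the log2(TPM + 1) scale (vertical axis) for each of the 43 members in order of size, with bars for the standard error, rings around members past the threshold and a dashed line at the median of the genes tested. NUP62 stands at -0.98, followed by NUP50 at -0.44 and NUP54 at -0.37, and most receptors lie above 0.

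Over all 6 times, 11 of 43 members (25.6%) differed between the arms, 9 higher and 2 lower in the induced arm. Among the genes tested 25.7% differed, 14.3% were higher and 11.4% lower. The members' count of calls is close to this background and is no result about the set as a whole. Higher calls were 55.6% of the called genes, and 65.7% of them without RMRP, MIR6723 and RPPH1. Of the 9 that were higher, 8 were receptors: KPNA1, KPNA4, KPNA6, IPO8, TNPO1, XPO1, XPO4 and XPO7. The other was NUP107, at 0.21 ± 0.066 (SE, adjusted p = 0.0288). NUP62 and IPO13 were the members that were lower. NUP62 differed by -0.45 ± 0.037 (adjusted p = 8.081e-07) and was lower in every induced group mean.

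The receptors that were higher differed by small amounts. IPO8, an importin beta relative, was at 16.9 and 17.3 TPM in the induced libraries and 12.5 and 12.3 TPM in the uninduced libraries at 6 h, and at 10.8 and 9.79 TPM in the induced libraries and 9.25 and 9.75 TPM in the uninduced libraries at 0 h. Its induced group mean was the higher at each of the 6 times, and its mean difference was 0.24 ± 0.061 (SE, adjusted p = 0.008748). TNPO1 was at 56.9 and 56.5 TPM in the induced libraries and 45.9 and 45.5 TPM in the uninduced libraries at 6 h, with a mean difference of 0.23 ± 0.047 (adjusted p = 0.002252). XPO1 had the smallest p of the receptors, with 0.17 ± 0.032 (adjusted p = 0.001099), and KPNA6 differed by 0.20 ± 0.050 (adjusted p = 0.008806). Both induced libraries of TNPO1 and of XPO1 were above both uninduced ones at 6 h, as for 31.3% of the genes tested.

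IPO13, a bidirectional carrier that exports the translation factor EIF1A, was lower, by -0.20 ± 0.067 (SE, adjusted p = 0.03505). It was at 8.42 and 9.89 TPM in the induced libraries and 10.7 and 11.1 TPM in the uninduced libraries at 6 h, and the arms overlapped at 0, 1 and 4 h. The number of members that were higher was unstable. With the most abundant transcript of each gene, the calls of IPO8 (adjusted p = 0.208), TNPO1 (0.297), NUP107 (0.0506), IPO13 (0.0657), KPNA1, XPO4 and XPO7 were lost with limma. With no filter on low values those of NUP107, IPO13, KPNA1, XPO4 and XPO7 were lost. The count of higher members was 5 without the induced replicate 1 library of 0, 0.5, 1 or 2 h or the uninduced replicate 2 library of 0.5 h, and 16 without the induced replicate 2 library of 0 h. Without both induced replicate 2 libraries of 0 h and 0.5 h, a choice made after the data were seen, it was 19, and NUP62 was the 1 that was lower.

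Nucleoporins and receptors, set side by side, are described here with no test. The median slope of the nucleoporins was 0.13 log2 per hour in the induced arm and 0.15 in the uninduced arm. That of the receptors was 0.17 in the induced arm and 0.16 in the uninduced arm. Setting NUP210L aside, NUP62 and NUPL2 were called as falling in the induced arm, beside 29% of the genes tested. No member was in the uninduced arm, beside 22.3%. The NUP62 call was lost in the fits given above. Under the alternatives given above, NUPL2, NUP210 and IPO9 were called as falling in the uninduced arm. In the induced arm NUP210, NUP54, KPNA5 and IPO9 were, of which KPNA5 and IPO9 are receptors. At 6 h the median difference between the arms was 0.06 for nucleoporins and 0.17 for receptors, beside 0.02 for the genes tested. Over all times the medians were 0.04 for nucleoporins, 0.15 for receptors and 0.05 for the genes tested.

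The summed levels are given for scale. The 22 nucleoporins together held 1052 ± 159 TPM in the induced libraries and 1051 ± 15.2 TPM in the uninduced libraries at 0 h, and 1629 ± 49.4 TPM in the induced libraries and 1789 ± 7.13 TPM in the uninduced libraries at 6 h (SD, n = 2 each). The 21 receptors held 1254 ± 124 TPM in the induced libraries and 1235 ± 38.0 TPM in the uninduced libraries at 0 h, and 3010 ± 91.9 TPM in the induced libraries and 2805 ± 31.9 TPM in the uninduced libraries at 6 h. In both arms the nucleoporin sum was highest at 4 h and the receptor sum at 6 h. The ratio of receptors to nucleoporins was 1.85 ± 0.112 in the induced libraries and 1.57 ± 0.024 in the uninduced libraries at 6 h. At 0 h it was 1.20 ± 0.064 in the induced libraries and 1.18 ± 0.053 in the uninduced libraries. Without NUP62 the nucleoporins held 1509 ± 51.9 TPM in the induced libraries and 1551 ± 1.82 TPM in the uninduced libraries at 6 h. Without KPNA2 the ratio at 6 h was 1.03 ± 0.056 in the induced libraries and 0.838 ± 0.0049 in the uninduced libraries.

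**Figure D5:**
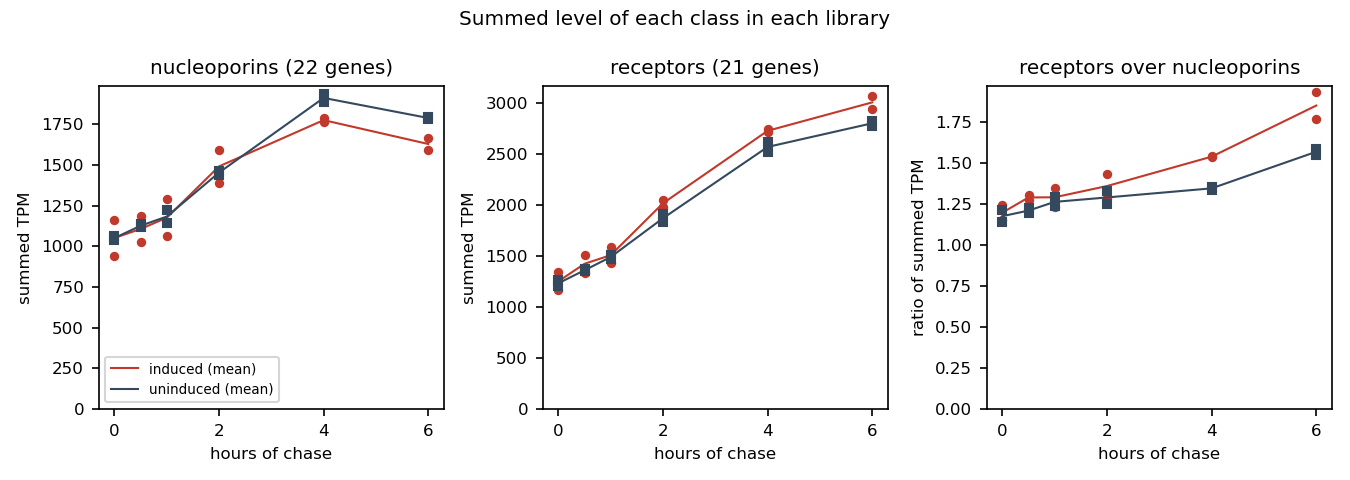
Summed TPM of the nucleoporins, of the receptors, and the ratio of receptors to nucleoporins against hours of chase, each point a library and each line the mean of 2 libraries of an arm. At 6 h the ratio is 1.77 and 1.93 in the induced libraries and 1.55 and 1.59 in the uninduced libraries.

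Genes of the same pathway that the naming leaves out were listed beside the members. Of 11 further pore proteins, among them TPR, RANBP2, SEC13, NDC1 and AHCTF1, 11 rose in each arm, beside 41.6% of the genes tested in the induced arm and 42.8% in the uninduced arm, with a median slope of 0.23 in the induced arm and 0.19 in the uninduced arm. POM121 and POM121C are near-identical copies, so their separate levels are uncertain. Of 5 further receptors, 4 rose and RANBP6 fell in the induced arm, while in the uninduced arm 3 rose, RANBP6 fell and RANBP17 was not called (adjusted p = 0.9018 with limma). XPOT, the tRNA exporter, had the steepest rise, 0.34 in the induced arm and 0.31 in the uninduced arm. Of 7 genes of the Ran cycle, 6 rose in both arms, and RANGRF was not called in either. NUTF2, which carries Ran back into the nucleus, was at 267 and 292 TPM in the induced libraries and 183 and 187 TPM in the uninduced libraries at 6 h. It was the 1 gene of these 23 that differed between the arms at 6 h, beside 9.14% of the genes tested, by 0.59 ± 0.108 (SE, adjusted p = 0.001892).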

How the data were processed

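Bromouridine-labelled cytoplasmic RNA was sequenced in 24 libraries, 2 for each of 12 groups. The authors deposited TPM values per RefSeq transcript for 48009 transcripts, with 2 decimals. Trim Galore, Bowtie2, RSEM 1.3.0 and hg19 are named, per the submitters' processing notes, and depth and strand use are not given in the sources used here. TPM was summed per gene symbol (25341 genes), 3 transcripts without a symbol were left out, and 13416 genes averaging 1 TPM or more were kept. On log2(TPM + 1), limma 3.58.1 (R 4.3.3, variance trend) fitted a line on hours per arm (20 residual degrees of freedom) and, separately, the 12 group means (12 residual degrees of freedom), with Benjamini-Hochberg adjustment over the 13416 genes and a threshold of 0.05. Differences are induced minus uninduced, and fold changes on this scale understate those of low genes. Changes along the chase are relative to all labelled RNA in the libraries: a loss shared by every RNA leaves no trace. The fits were tested on simulated data.

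The genes named were, per class and comparison, the 3 largest called in each direction or, with none, the 2 smallest p-values, plus the highest, lowest and threshold-nearest levels, TOB2, and examples of each subgroup. NUP153, NUPL1, KPNA5, NUP155, NUP210, ATF5 and NUTF2 and the subgroup examples were chosen after their values were seen. The members and lists were chosen with earlier results of these data known. Alternatives changed the pseudocount, low-value filter, scaling, transcripts used, variance trend, times in the line, replicate block and each library in turn. Figures were drawn with matplotlib 3.10.9.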

Additional observations from a re-analysis of the deposited data

How the results depend on the processing

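Depth is unknown, each group has 2 libraries, and low genes are limited by the pseudocount. The causes of the changes below were not tested. Members falling in the uninduced arm (1) numbered 3 with quantile normalization, 4 with median-of-ratios scaling, without RMRP, MIR6723 and RPPH1, or with protein-coding transcripts only, 2 with the trend contrast of group means or with induced replicate 2 at 0 h and 0.5 h left out (a choice made after seeing the data), and 0 for the line over 0 to 2 h, where 17 rose. In the induced arm (3) they numbered 5, 5, 6 and 7 under the first 4 of these and 0 over 0 to 2 h. Lower slope differences (0) numbered 1 without the 3 noncoding RNAs (NUP54), 1 for protein-coding transcripts (NUPL2), 3 with the trend contrast and 1 with the 2 libraries left out (NUPL2). At 6 h, 1 member was higher in place of 0 with no filter (XPO1) and with quantile, median-of-ratios, no noncoding RNAs, protein-coding transcripts or the 2 libraries left out (TNPO1). Over all times the higher members (9) numbered 5 with no filter, 15 with quantile, 18 without the noncoding RNAs, 19 for protein-coding transcripts, 3 for the most abundant transcript and 19 with the 2 libraries left out. The lower ones (2) numbered 4 with median-of-ratios and 1 with no filter, the most abundant transcript or the 2 libraries left out.

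The nucleoporin median slope minus the receptor median was -0.009 in the uninduced arm. It was -0.013 with a pseudocount of 0.1, 0.0038 for at least 5 TPM, -0.0288 with quantile, 6e-04 for the most abundant transcript, -0.0563 over 0 to 4 h and 0.0094 over 0 to 2 h. In the induced arm (-0.0435) it was -0.0482 and -0.0312 with pseudocounts of 0.1 and 5, -0.0335 for at least 5 TPM, -0.0687 with quantile, -0.009 for the most abundant transcript, -0.0573 over 0 to 4 h, -5e-04 over 0 to 2 h and -0.0605 with the 2 libraries left out. For the slope difference (-0.0135) it was -0.0082 for at least 5 TPM, -0.0084 with quantile, -0.0057 for the most abundant transcript and -0.0222 with the 2 libraries left out. The induced slope of NUP54 turned to -0.0513 with quantile, -0.0434 without the noncoding RNAs and -0.0651 for protein-coding transcripts. The slope of NUP62 turned to 0.0312 in the induced arm and 0.1196 in the uninduced arm over 0 to 4 h, and to 0.2274 and 0.2984 over 0 to 2 h. The uninduced slope of IPO8 turned to -0.0159 over 0 to 2 h.

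With single libraries or a replicate left out, rising members ranged from 28 to 35 in the induced arm and 31 to 33 in the uninduced arm, and falling ones from 2 to 3 and 1 to 2. The class median difference ranged from -0.0511 to -0.0396 in the induced arm, -0.022 to -0.0054 in the uninduced arm and -0.0251 to -0.0093 for the slope difference. Slope and 0 h differences had 0 calls throughout. At 6 h 0 to 1 were higher and 1 to 3 lower, and over all times 5 to 16 were higher and 1 to 3 lower. Leaving out a whole replicate left no residual degrees of freedom for the group means, so it was run for the lines only. The labels do not say that replicate numbers pair libraries, and deviations of same-numbered libraries correlated between arms at 0.02 to 0.156. With the replicate block, 2 members fell in the uninduced arm and 15 were higher over all times.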
